A study of Mus musculus with 18 samples.

Results

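Loss of the long noncoding RNA Cyrano was examined in mouse cerebellum on a background that already carried a mutated miR-671 site in Cdr1as, a circular RNA. The comparison uses 6 of the 18 small-RNA libraries of the study, chosen by genotype and tissue from the labels. Both groups of 3 carry the same 18 nt deletion at the miR-671 site of Cdr1as. The group called Cdr1as671 carries that deletion alone, and the group called CyrKOCdr1as671, here the double mutant, carries it together with the knockout of Cyrano. Every mouse was a 1 month old male on the C57BL/6J strain. The other 12 libraries are WT and CyrKO cerebellum and WT and CyrKO hippocampus, with 3 each. The WT and CyrKO cerebellum libraries serve here as the same loss of Cyrano with the miR-671 site intact. How the alleles were made, whether each is 1 line, and which mice were littermates is not stated in the labels. The small-RNA libraries do not measure either long RNA, so no genotype could be checked on its target.

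A miRNA hairpin yields a guide strand, which is kept in an Argonaute protein, and a passenger strand from the other arm, most of which is discarded. In target-directed miRNA degradation an RNA that pairs with both the seed and the 3′ part of a guide strand leads to loss of that guide while the other arm of the hairpin is left alone. Cyrano carries such a site for miR-7. Cdr1as holds many seed sites for miR-7 and 1 nearly complete site for miR-671, through which miR-671 directs slicing of the circle. miR-7 is a miRNA of neurons and endocrine cells and is low in cerebellum of mice that have Cyrano.

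The mature sequences are shown because the strands that moved fall into sets by sequence. They are from RefSeq (GRCm38.p6), written 5′ to 3′ with the seed, bases 2 to 8, in capitals. Of the 688 miRNAs tested, 582 had a sequence there.
miR-7a-5p: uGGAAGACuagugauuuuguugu
miR-7b-5p: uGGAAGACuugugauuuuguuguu
miR-671-5p: aGGAAGCCcuggaggggcuggag
miR-409-3p: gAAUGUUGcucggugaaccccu
miR-411-3p: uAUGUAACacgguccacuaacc
miR-379-3p: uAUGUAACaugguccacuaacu
Both miR-7 guides have the seed GGAAGAC and differ at 1 of 23 compared bases. The seed of miR-671-5p differs from it at 1 of 7 bases. miR-411-3p and miR-379-3p share the seed AUGUAAC and differ at 2 of 22 bases. No other tested miRNA with a RefSeq sequence has that seed. miR-409-3p has a seed that no other tested miRNA with a RefSeq sequence has. Reads of strands this similar, above all miR-7a-5p with miR-7b-5p and miR-411-3p with miR-379-3p, may be split uncertainly between the members of a pair.

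The site in Cyrano that pairs with miR-7 is shown with the bases that can pair in capitals. It was read from transcript 1700020I14Rik-202, 8300 bases long, in GENCODE M21 (GRCm38), and lies in exon 3 at chr2:119602134-119602161 on the plus strand.
Cyrano site, pairing with miR-7a-5p: agaACAACAAAATCACcaatGTCTTCCA
second seed match, chr2:119599944-119599971: cttcaggttttttttttaatGTCTTCCA
In the first site 13 bases pair with bases 11 to 23 of miR-7a-5p, 4 unpaired bases follow, and the seed match with the base opposite base 1 of the miRNA closes the site. For miR-7b-5p the first run is 14 bases, and the second seed match has no other run above 3. The letters ACAACAAAATCAC followed within 0 to 6 bases by GTCTTCC occur in 1 of 141767 GENCODE transcripts, this one, on the RNA strand. They were taken from this site, so its own match was fixed in advance. The seed match GTCTTCC alone is common, at 48.7% of 1408 regions of 8300 bases. The stretch of Cdr1as that could be read, the reverse complement of transcript Cdr1-201 at 1554 bases, holds 79 matches to GTCTTCC, each with a longest other run of 2 to 7 bases (median 5), while 13.9% of 52759 regions of that length hold any. These matches are a description of the letters and show neither binding nor a cause.

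The libraries held 8599697 to 10564334 miRNA reads in Cdr1as671 and 8817113 to 10541539 in the double mutant, with RNA integrity numbers of 8.7 to 9.0 and 8.5 to 9.5. Levels below are TMM-scaled CPM, the reads of a miRNA per 1000000 miRNA reads after a scaling that keeps most miRNAs level. In the 6 libraries the cerebellum-rich miR-206-3p lay at 791 to 1230 CPM before that scaling, against 4.51 to 6.75 CPM in WT hippocampus, and miR-137-3p, high in hippocampus, at 382 to 576 against 10300 to 10800 CPM. Replicates of a group had log2 levels correlated across miRNAs at r = 0.987 to 0.998 and differed by far more than counting noise (chi-square per degree of freedom 35.2 to 464). 2 libraries stand apart, Cdr1as671 replicates 1 and 2. Their summed erythroid miRNAs, the miRNAs of red blood cells, were at 759 and 558 CPM, against 16231 CPM in Cdr1as671 replicate 3 and 5606 to 16623 CPM in the double mutant. RNA from blood left in the tissue and RNA of the tissue cannot be told apart in bulk samples, nor can fewer cells of a type and less RNA per cell.

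Loss of Cyrano on the mutated background raised 5 miRNAs, both miR-7 guide strands and the 3p strands of the hairpins Mir409, Mir411 and Mir379, and lowered none at the threshold. The miR-7 guides went from a rare to a leading part of the miRNA pool. The 3 other strands changed by less than 3-fold. By edgeR's quasi-likelihood test 5 of 688 miRNAs rose (0.727%) and 0 fell (0%) at an adjusted p under 0.05, a threshold taken over all 688. At an unadjusted p under 0.05 there were 59, with 37 higher and 22 lower. DESeq2 called these 5 and 1 that was lower, miR-214-3p. The median log2 change over all tested miRNAs was -0.01, and the median size of a change was 0.15.

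**Figure D1:**
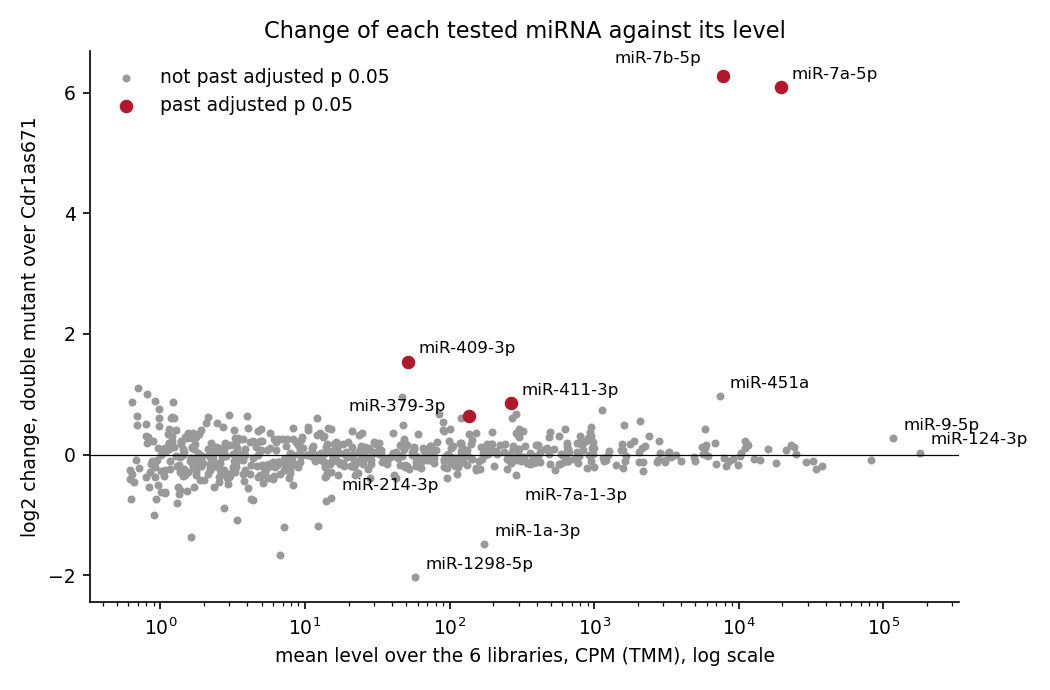
Log2 change of each of the 688 tested miRNAs, double mutant over Cdr1as671, against its mean level over the 6 libraries in TMM-scaled CPM on a log axis. The 5 miRNAs past the threshold are in red, and miR-7a-5p and miR-7b-5p lie above a log2 change of 6, far from all others. The lowest labelled points, miR-1298-5p and miR-1a-3p, had their highest level in 1 library, Cdr1as671 replicate 2.

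miR-7a-5p, the more abundant guide, stood at 528, 503 and 684 CPM in Cdr1as671 replicates 1 to 3 and at 34612, 38230.4 and 43541 CPM in the double mutant. The groups lie far apart. The mean went from 572 ± 98.0 to 38794 ± 4492 CPM (SD, n = 3 each), a 67.8-fold rise with a log2 change of 6.08 (SE 0.15, edgeR adjusted p = 7.71e-15).

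miR-7b-5p, from a hairpin on another chromosome, stood at 189, 177 and 227 CPM in Cdr1as671 and at 13899, 15142 and 16966 CPM in the double mutant. Again no library of one group came near the other group. Its mean went from 198 ± 26.3 to 15336 ± 1543 CPM (SD, n = 3 each), a 77.6-fold rise with a log2 change of 6.28 (SE 0.15, edgeR adjusted p = 7.71e-15).

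Together the guides took 0.0795% ± 0.00998 of all miRNA reads in Cdr1as671 and 5.20% ± 0.566 in the double mutant (SD, n = 3 each). By rank among the miRNAs of a library, miR-7a-5p moved from places 99 to 112 to place 4, and miR-7b-5p from places 166 to 174 to places 15 and 16. With library totals alone the median log2 change of all tested miRNAs was -0.12, and 30.96% of changes were positive, against 47.67% with TMM.

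The balance between the guides shifted slightly. There were 2.80 to 3.01 reads of miR-7a-5p per read of miR-7b-5p in Cdr1as671 and 2.49 to 2.57 in the double mutant, ranges that did not overlap. The means were 2.88 ± 0.111 and 2.53 ± 0.0381 (SD, n = 3 each). On the intact background WT cerebellum had 2.88 ± 0.130 and CyrKO cerebellum 2.47 ± 0.165. This ratio was not tested.

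Of the 3 passenger strands of these hairpins 0 passed the test in either direction. miR-7a-1-3p, from the Mir7-1 hairpin, was at 339, 314 and 317 CPM in Cdr1as671 and at 281, 246 and 240 CPM in the double mutant. Every double-mutant library lay below every Cdr1as671 library, with a log2 change of -0.34 (SE 0.10) that did not pass the test (edgeR adjusted p = 0.354). Of all 688 miRNAs, 38 (5.52%) were lower without overlap. With library totals alone miR-7a-1-3p did pass, at -0.45 and an edgeR adjusted p of 0.045. In that setting 14.8% of all tested miRNAs were lower without overlap.

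miR-7b-3p, the passenger of miR-7b, was at 19.95, 19.3 and 13.9 CPM in Cdr1as671 and at 12.2, 9.45 and 9.47 CPM in the double mutant. Its groups did not overlap either, beside 5.52% of all tested miRNAs lower without overlap. The log2 change of -0.77 (SE 0.28) missed the threshold (edgeR adjusted p = 0.545). Without WT replicate 3, which enters the fit through the shared filter, scaling and spread, it was -0.74 and passed at an edgeR adjusted p of 0.0488. miR-7a-2-3p, from the Mir7-2 hairpin, had 38 to 48 reads a library and a log2 change of 0.22 (SE 0.18, edgeR adjusted p = 0.713). It went the other way, higher without overlap after TMM scaling, beside 5.23% of all tested miRNAs.

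Ratios of a 5p to a 3p strand within a library do not depend on scaling between libraries. miR-7a-5p has the same sequence in Mir7-1 and Mir7-2, so its reads pool both hairpins and its ratio to either passenger is not the arm balance of 1 hairpin. Over miR-7a-1-3p its log2 ratio was 0.81 ± 0.26 in Cdr1as671 and 7.24 ± 0.28 in the double mutant (SD, n = 3 each). Over miR-7a-2-3p it was 7.15 ± 0.27 and 13.01 ± 0.16. For the arms of Mir7b it was 3.49 ± 0.47 and 10.54 ± 0.34. Arm ratios were also taken for miR-671, as 5p to 3p, and for Mir409, Mir411 and Mir379, as 3p to 5p. In 6 of the 7 ratios examined the groups did not overlap, each with an exact two-sided permutation p of 0.1. That is the smallest p that 3 against 3 allows, and the adjusted p was 0.117 over the 7. The first strand of each of these 6 was called as risen in the same libraries, so the separation partly restates those calls. The share over other hairpins was not computed.

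**Figure D2:**
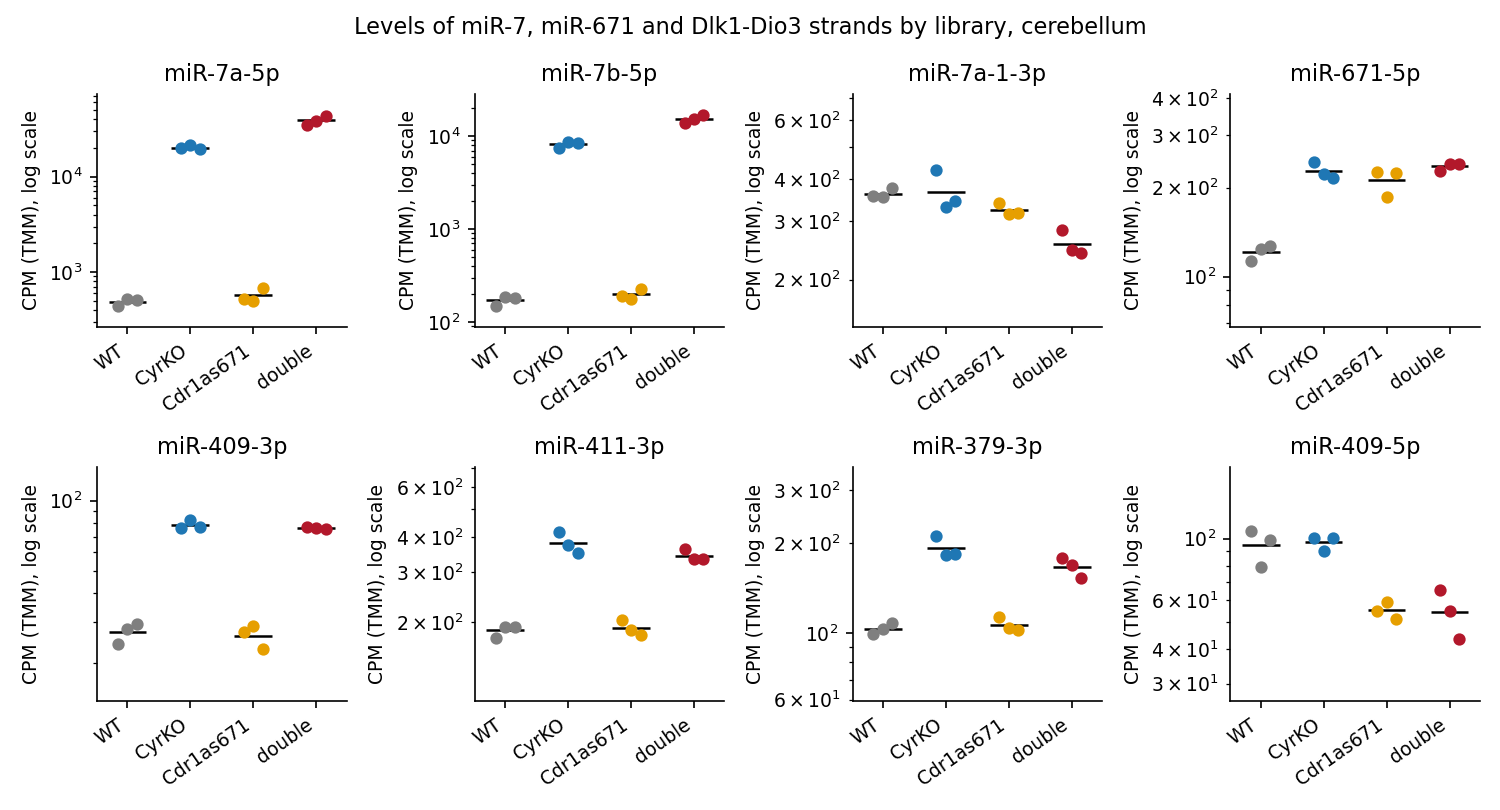
Level of 8 strands in each of the 12 cerebellum libraries, in TMM-scaled CPM on log axes that differ between panels, with points for libraries and a bar for each group mean (n = 3). The miR-7 guides, miR-379-3p, miR-411-3p and miR-409-3p are high in CyrKO and in the double mutant, whereas miR-671-5p is low in WT alone and miR-409-5p is lower in both groups with the Cdr1as deletion.

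miR-671-5p, the guide that pairs with the deleted site, was not called. It stood at 226.5, 186 and 224 CPM in Cdr1as671 and at 228, 240.3 and 241 CPM in the double mutant. After TMM scaling the libraries do not overlap but are nearly adjacent, beside 5.23% of all tested miRNAs higher without overlap. With library totals alone they overlap. The log2 change of miR-671-5p was 0.16 (SE 0.10, edgeR adjusted p = 0.647). Its passenger miR-671-3p was at 22.7, 20.7 and 16.5 against 16.4, 18.7 and 17.4 CPM, overlapping groups with a log2 change of -0.19 (SE 0.13, edgeR adjusted p = 0.681). The log2 ratio of the arms was 3.42 ± 0.31 and 3.76 ± 0.07 (SD, n = 3 each), the 1 ratio of the 7 in which the groups overlapped (exact two-sided permutation p = 0.2, adjusted p = 0.2).

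With the miR-671 site intact 6 of 688 miRNAs rose on loss of Cyrano (0.872%), the 5 above and miR-671-5p, and 1 fell (0.145%), miR-374c-5p, named after its value was seen. There miR-671-5p was at 113, 124 and 127 CPM in WT and at 244, 221 and 215 CPM in CyrKO, which do not overlap. The log2 change there was 0.90 (SE 0.10, edgeR adjusted p = 1.16e-05). WT was the lowest of the 4 cerebellum groups, at 121 ± 7.60 CPM, and the other 3 had means of 212 ± 22.7 in Cdr1as671, 227 ± 15.6 in CyrKO and 236 ± 7.32 CPM in the double mutant (SD, n = 3 each).

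The difference between the effects of Cyrano loss on the mutated and intact backgrounds was tested directly, as an interaction in the fit of 12 libraries. Of 688 miRNAs 1 passed (0.145%), miR-671-5p, with a log2 difference of -0.75 (SE 0.14, edgeR adjusted p = 0.043), while 27 had an unadjusted p under 0.05. The call was kept without Cdr1as671 replicate 2 (-0.82, adjusted p = 0.0192), without replicate 3 (-0.63, 0.014) and without Cdr1as671 replicates 1 and 2 together (-0.84, 0.0456). It was lost when Cdr1as671 replicate 1 was left out (-0.66, adjusted p = 0.301), and also without any 1 library of the double mutant (adjusted p 0.0991 to 0.266), of WT (0.154 to 0.162) or of CyrKO (0.138 to 0.17). Over these and the other alternatives the difference ran from -0.84 to -0.63. DESeq2 called 4 miRNAs different, which were this one, both miR-7 guides and miR-666-3p.

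For the miR-7 guides the log2 rise had a higher value on the mutated background, by a difference that missed the threshold. The log2 rise of miR-7a-5p was 6.08 with the site mutated and 5.36 (SE 0.14) with it intact, a difference of 0.73 (SE 0.17, edgeR adjusted p = 0.168). For miR-7b-5p the values were 6.28 and 5.58 (SE 0.14), a difference of 0.70 (SE 0.17, edgeR adjusted p = 0.168). DESeq2 called both differences (adjusted p = 0.0288 and 0.0299), as did edgeR with no filter on low counts (0.00494 for each) and without Cdr1as671 replicate 3 (0.95 at 0.00609 and 0.89 at 0.00776). In levels, miR-7a-5p reached 19209 to 21364 CPM in CyrKO and 34612 to 43541 CPM in the double mutant.

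**Figure D3:**
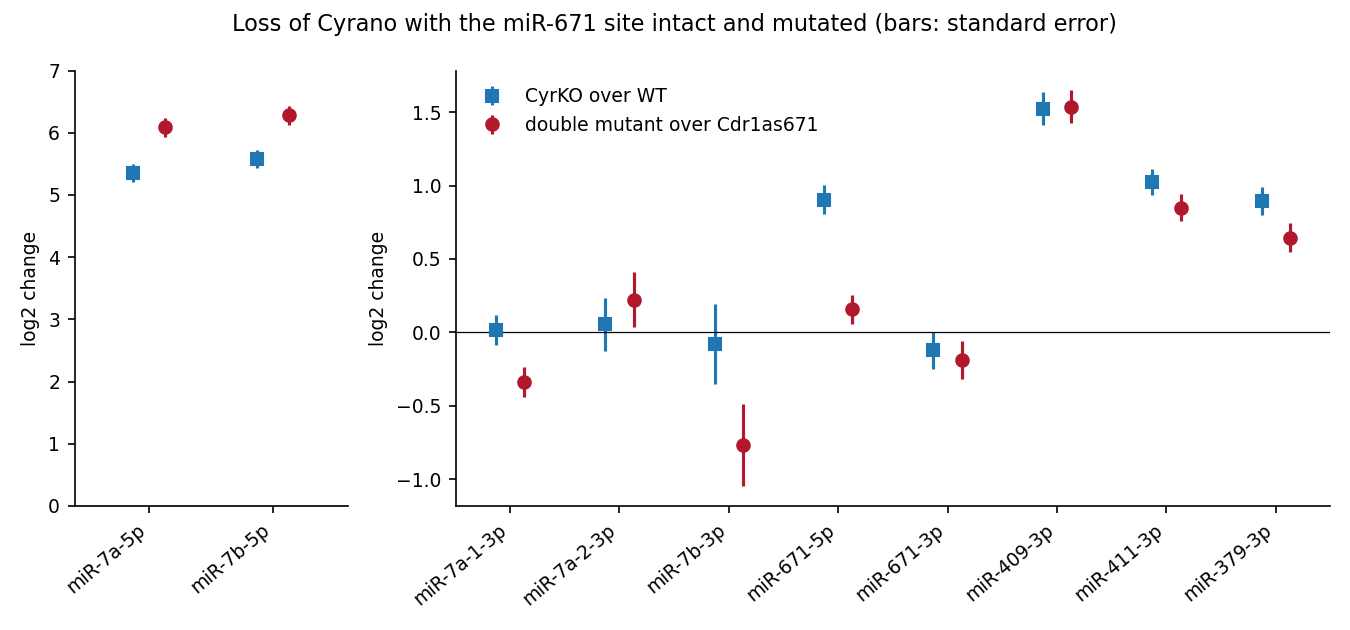
Log2 change on loss of Cyrano with the miR-671 site intact (CyrKO over WT, squares) and mutated (double mutant over Cdr1as671, circles), with bars for 1 standard error, and with a different vertical scale for the miR-7 guides on the left. miR-671-5p changed by 0.90 with the site intact and 0.16 with it mutated, while miR-409-3p had nearly the same change on both backgrounds.

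The other strands that rose come from the miR-379/410 cluster of the imprinted Dlk1-Dio3 region on chromosome 12, a long maternally expressed array of miRNA hairpins. Their hairpins are shown from RefSeq (GRCm38.p6, plus strand) with both mature arms in capitals, the 5p arm first, because only 1 arm of each passed the test.
Mir409, chr12:109743158-109743236: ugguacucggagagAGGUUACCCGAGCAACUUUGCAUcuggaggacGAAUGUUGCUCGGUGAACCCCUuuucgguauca
Mir411, chr12:109710175-109710256: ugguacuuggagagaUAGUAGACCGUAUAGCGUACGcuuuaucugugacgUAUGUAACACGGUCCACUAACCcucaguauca
Mir379, chr12:109709060-109709125: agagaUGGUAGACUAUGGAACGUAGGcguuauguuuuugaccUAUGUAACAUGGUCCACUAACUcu
Mir411 starts 1.11 kb and Mir409 34.1 kb after Mir379.

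miR-409-3p stood at 27.1, 28.7 and 22.9 CPM in Cdr1as671 and at 76.8, 76.5 and 75.4 CPM in the double mutant. The double-mutant libraries lie within 2 CPM of each other and well above the other group. The mean went from 26.2 ± 2.98 to 76.2 ± 0.721 CPM (SD, n = 3 each), a 2.90-fold rise with a log2 change of 1.54 (SE 0.11, edgeR adjusted p = 6.76e-08). The 5p arm, miR-409-5p, was at 54.8, 59.3 and 51.2 against 65.3, 54.8 and 43.4 CPM, overlapping groups with a log2 change of -0.01 (SE 0.14) whose sign varied with the settings. The log2 ratio of the 3p to the 5p arm went from -1.07 ± 0.07 to 0.50 ± 0.28, so the more abundant arm changed from 5p to 3p. With the miR-671 site intact this ratio went from -1.80 ± 0.32 in WT to -0.31 ± 0.15 in CyrKO (SD, n = 3 each). There 5p stayed the more abundant arm.

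In both groups with the Cdr1as deletion miR-409-5p was lower than in WT and CyrKO, at 43.4 to 65.3 against 79.3 to 107 CPM. In the authors' deposited tables, which share the WT libraries, its log2 change against WT was -0.78 for Cdr1as671 (adjusted p = 9.87e-05) and -0.79 for the double mutant (adjusted p = 3.27e-05). The log2 rise of miR-409-3p was 1.54 with the site mutated and 1.52 (SE 0.11) with it intact, a difference of 0.01 (SE 0.15) whose sign varied with the settings.

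miR-411-3p stood at 203, 187 and 180.2 CPM in Cdr1as671 and at 361, 334 and 334 CPM in the double mutant. No library overlapped, and the mean went from 190.2 ± 11.9 to 343 ± 15.8 CPM (SD, n = 3 each), a 1.80-fold rise with a log2 change of 0.85 (SE 0.09, edgeR adjusted p = 1.42e-05). Its 5p arm was at 243 to 273 and 252 to 280.0 CPM, overlapping groups with a log2 change of 0.01 (SE 0.09) whose sign varied with the settings. The log2 ratio of the 3p to the 5p arm went from -0.46 ± 0.10 to 0.38 ± 0.11, again across equality.

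miR-379-3p stood at 113, 104 and 102.5 CPM in Cdr1as671 and at 178.5, 169 and 153 CPM in the double mutant. The groups did not overlap, and the mean went from 107 ± 5.81 to 167 ± 12.8 CPM (SD, n = 3 each), a 1.57-fold rise with a log2 change of 0.65 (SE 0.10, edgeR adjusted p = 0.000798). Here the 5p arm also lay higher, at 521 to 559 against 402 to 456 CPM, a log2 change of 0.30 (SE 0.10) that did not pass (edgeR adjusted p = 0.482). The log2 ratio of the 3p to the 5p arm was -2.03 ± 0.09 and -1.68 ± 0.17, without overlap, and 5p stayed the more abundant arm.

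On the intact background the rises of miR-411-3p and miR-379-3p had log2 changes of 1.02 (SE 0.09) and 0.89 (SE 0.10). The differences between backgrounds, -0.17 (SE 0.13) and -0.25 (SE 0.14), did not pass (edgeR adjusted p = 0.863 for each). The nearest other sequence, among the tested miRNAs with a RefSeq sequence, is miR-758-3p of the same cluster. It differs from miR-379-3p at 3 bases and from miR-411-3p at 4. Its level was 17.1 to 19.9 CPM in Cdr1as671 and 16 to 20.4 CPM in the double mutant, which overlap.

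Over the whole cluster 3 of 58 tested strands rose, 0 fell, and the median log2 change was 0.05, beside -0.01 over all tested miRNAs. Without the arms of the hairpins Mir379, Mir411 and Mir409 there were 52 strands, of which none passed in either direction, with a median of 0.04. Of these 52, 4 were higher in all 3 double-mutant libraries than in any Cdr1as671 library and 0 were lower, beside 36 (5.23%) and 38 (5.52%) of all 688. With library totals alone the shares over all tested miRNAs were 2.33% higher and 14.8% lower. The most abundant member, miR-381-3p, was at 1166 to 1401 and 1103 to 1207 CPM, with a log2 change of -0.10 (SE 0.09). The neighbouring group around miR-127 and miR-433, transcribed from the same region, had 18 tested strands, of which 0 rose and 0 fell, and a median of -0.02.

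**Figure D4:**
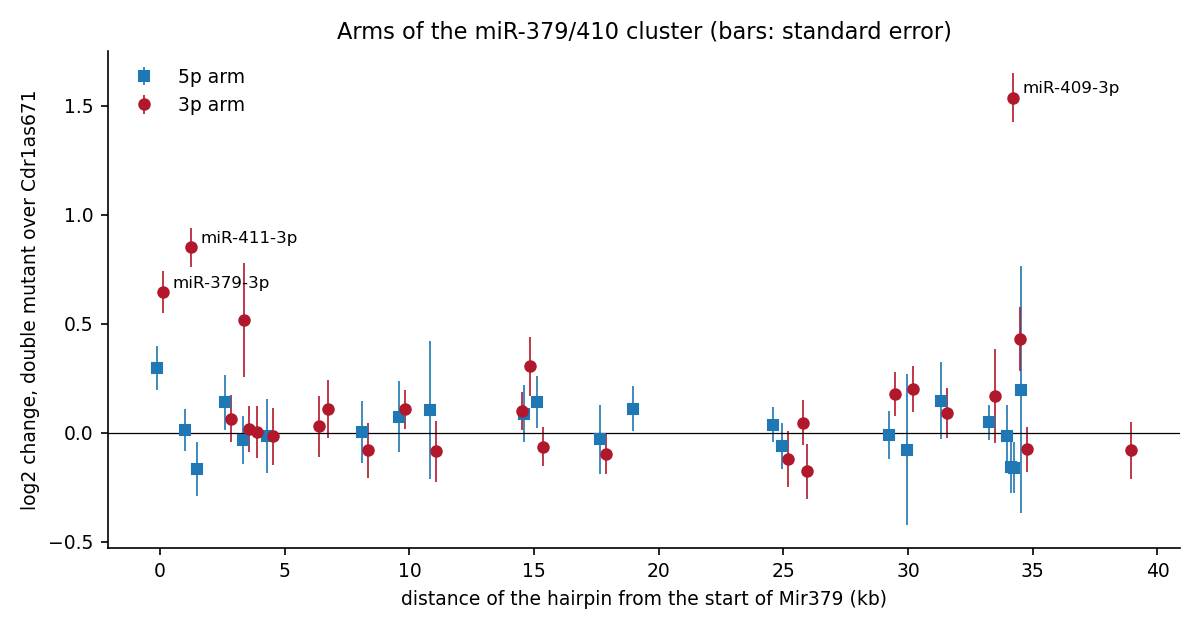
Log2 change, double mutant over Cdr1as671, of the tested arms of the miR-379/410 cluster whose hairpin is in the RefSeq table, by the distance of its hairpin from the start of Mir379, with bars for 1 standard error, and arms drawn slightly apart. 3 of the 3p arms, at 0, 1.11 and 34.1 kb, are at 0.65, 0.85 and 1.54, and no other arm drawn has a change as large as that of miR-379-3p.

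In the letters of Cyrano, the seed match of miR-409-3p (CAACATT) occurs 3 times, each with a longest other run of 2 to 4 bases. It occurs in 48.2% of 1408 regions of that length, and 5.26% hold as many. The seed match shared by miR-411-3p and miR-379-3p (GTTACAT) does not occur in the transcript read here, and 34.8% of regions hold it. Only the RNA strand was searched.

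Among lower miRNAs none passed edgeR's test. The 5 of lowest p with a mean of at least 10 CPM were miR-214-3p, miR-378b, miR-7a-1-3p, miR-1198-5p and miR-139-3p, each without overlap between the groups. Picking by low p favours such separation, and 38 of all 688 (5.52%) were lower without overlap. miR-214-3p, a miRNA of mesenchymal cells, was at 18.1, 20.9 and 17.3 CPM in Cdr1as671 and at 14, 9.85 and 10.2 CPM in the double mutant. Its log2 change was -0.72 (SE 0.18, edgeR adjusted p = 0.118). It passed in DESeq2 (adjusted p = 0.0368), with no low-count filter (0.00475), with library totals alone (0.0286), without double-mutant replicate 1 (0.0332) and without Cdr1as671 replicate 3 (0.0269).

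miR-378b had a log2 change of -0.39 (SE 0.10, edgeR adjusted p = 0.154), and passed with library totals alone (adjusted p = 0.0372) and without Cdr1as671 replicate 3 (0.0319). miR-1198-5p had -0.31 (SE 0.10, edgeR adjusted p = 0.354), and passed without Cdr1as671 replicate 3 (0.0307). miR-139-3p had -0.37 (SE 0.13, edgeR adjusted p = 0.488). For miR-1198-5p and miR-139-3p the double-mutant means of 101 and 11.9 CPM lay near those of WT, 100.3 and 12 CPM, and the Cdr1as671 means of 125 and 15.4 CPM were the higher ones.

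The rest of the miRNA pool showed no called change. The most abundant miRNAs, miR-124-3p and miR-9-5p of neurons, miR-26a-5p, miR-125b-5p and miR-125a-5p, had log2 changes of 0.03, 0.27, -0.09, -0.19 and -0.23. miR-124-3p was at 175202 to 179516 CPM in Cdr1as671 and at 172077 to 192739 CPM in the double mutant, which overlap. Of the neuronal list 0 of 10 rose and 0 fell, with a median log2 change of 0.14. Other miRNAs reported to be lost by target-directed degradation, such as miR-322-5p and miR-335-3p, had 0 of 4 in either direction and a median of 0.11.

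Lists of other cell types also held no called member. The median log2 change was 0.17 over 12 strands of miR-17~92 and its relatives, which serve proliferating cells. It was -0.44 over 4 mesenchymal miRNAs, among them miR-199a-5p at -0.34, and 0.40 over 3 of the sensory miR-183 cluster, with miR-182-5p at 0.49. It was 0.04 over 6 vessel miRNAs, although miR-145a-5p of smooth muscle, at -0.23, was lower without overlap, beside 5.52% of all tested. It was -0.0027 over 5 immune miRNAs, with miR-150-5p of lymphocytes lower without overlap at -0.27, and -0.16 over 10 choroid plexus miRNAs, with miR-204-5p at -0.18. For all tested miRNAs it was -0.01, and 0 of each list passed in either direction. The lists of oligodendrocyte, activity-regulated, epithelial miR-200, let-7, miR-29, miR-30 and miR-181 miRNAs had medians of -0.03, 0.02, 0.05, 0.09, 0.02, 0.03 and -0.05. Of the let-7 strands 3 of 7 were lower without overlap, beside 5.52% of all tested, and the other 4 had positive changes with overlap, all within -0.16 to 0.19. Those of muscle, cerebellum-rich and hippocampus-rich miRNAs had -0.85, 0.14 and -0.10. The muscle list held only 2 tested strands, and its miR-1a-3p, at -1.49, was at 0.0258 without Cdr1as671 replicate 2. The mesenchymal, miR-200 and hippocampus-rich lists each had 1 member lower without overlap, and the choroid plexus list had 1 higher. Over all tested miRNAs 5.52% were lower and 5.23% higher without overlap.

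The erythroid miRNAs moved with single libraries. miR-451a was at 687, 508 and 13714 CPM in Cdr1as671 and at 14649, 4803 and 9824 CPM in the double mutant, with a log2 change of 0.97 (SE 1.22, edgeR adjusted p = 0.795). All 3 of the list, with miR-144-3p and miR-144-5p, had a positive change, with a median of 0.96, and none was at 0 in any of the 6 libraries. The miR-17~92 list moved in the same libraries, with summed levels of 3781, 3913 and 5536 CPM in Cdr1as671 and of 4840 to 6818 CPM in the double mutant.

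Leaving out Cdr1as671 replicate 3, the 1 library of its group near the level of the others in these lists, took the count of calls from 5 to 59, with 53 higher and 6 lower and the original 5 among them. The added calls included miR-451a at 4.07, miR-9-5p at 0.48, miR-137-3p at 0.59, miR-19b-3p at 0.84 and miR-106b-5p at 0.43. Among the 6 lower were miR-125a-5p at -0.29 and miR-125b-5p at -0.26, both among the 5 most abundant miRNAs. With Cdr1as671 replicates 1 and 2 left out instead, the same 5 were called and no other, the lone remaining library being assumed to vary like the other groups. The part of blood or of other cell content in these added calls was not tested. In all 24 alternatives tried for them, miR-379-3p, miR-411-3p and miR-409-3p passed, at log2 changes of 0.54 to 0.72, 0.74 to 0.91 and 1.43 to 1.71, and the miR-7 guides passed in all 23 that kept them.

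**Figure D5:**
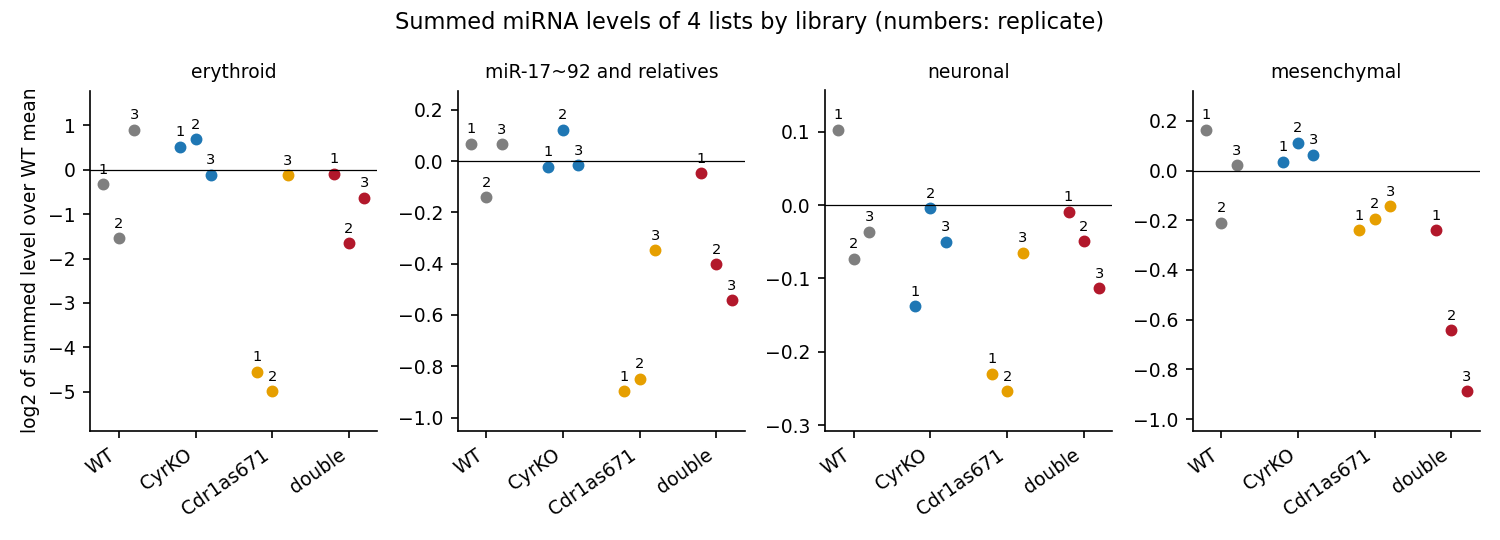
Log2 of the summed level of 4 lists of miRNAs in each of the 12 cerebellum libraries over the WT mean, with the replicate number above each point and with different vertical scales. Cdr1as671 replicates 1 and 2 lie lowest in the erythroid, miR-17~92 and neuronal lists, with erythroid sums below the WT mean by more than 4 on the log2 scale.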

How the data were processed

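Small RNAs of 18 to 32 nt were selected from 5 ug of total RNA, per the labels' protocols. The submitters' processing notes name cutadapt and DESeq2 1.10. The way reads were assigned, the miRNA annotation and the genome build were not given in the sources used here. In all, the authors deposited 1 table for each mutant group with its WT. Counts in the deposited tables are whole reads per miRNA, per the file headers. The deposited normalised signal, each count over a size factor, and the deposited Wald score of DESeq2 were not used. The log2 changes against WT with their adjusted p-value are the authors' and are printed where named. All columns of library values were mapped (0 left over), and WT counts, identical across tables (1841 of 1841 miRNAs), entered once.

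The counts of the 12 cerebellum libraries were fitted together in edgeR 4.0.16 (R 4.3.3) by group: filterByExpr (minimum count 10, minimum total 15), TMM scaling, the robust quasi-likelihood F-test and Benjamini-Hochberg adjustment over all 688 miRNAs, with a threshold of 0.05. The standard error is the log2 change over the square root of F. CPM levels were computed here from the deposited counts. Ratios of 5p to 3p strands, or of 3p to 5p for Mir409, Mir411 and Mir379, were compared by exact permutation. A pseudocount of 0.5 reads was an alternative. DESeq2 1.42.0 was an alternative. The fit was also run on simulated counts drawn from a common mean profile. These held no whole libraries that stand apart, so they cannot show how the fit behaves with such libraries.

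Named were every strand of the hairpins of miR-7 and of miR-671, both arms of miR-379, miR-411 and miR-409, all called miRNAs, the 5 of lowest p at 10 CPM or more where fewer than 5 passed, the 5 most abundant, and up to 4 abundant members of each list. miR-758-3p, miR-374c-5p, miR-666-3p, miR-1298-5p and miR-1a-3p were singled out after values were seen. The comparison, its members, lists and alternatives were chosen with earlier results of these data known, and the lists are described without a set test. Replicates are biological per the series' design text.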

Additional observations from a re-analysis of the deposited data

Results flagged for a closer look

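The effect of Cyrano loss on miR-671-5p differed between the backgrounds by the test of the difference itself, at -0.75 on the log2 scale (SE 0.14, edgeR adjusted p = 0.043 over 688 miRNAs). The strand was higher in 3 of 3 CyrKO libraries than in any WT library, by a log2 change of 0.90. In that comparison 4.07% of all tested miRNAs were higher without overlap. On the mutated background its log2 change was 0.16 and was not called (edgeR adjusted p = 0.647). There the groups were just apart after TMM scaling, beside 5.23% of all tested miRNAs higher without overlap. With library totals alone they overlapped. The level in Cdr1as671, 212 ± 22.7 CPM (SD, n = 3), was already near that of CyrKO, 227 ± 15.6 CPM. The difference passed in 10 of 23 alternatives, with log2 values of -0.84 to -0.63 and adjusted p up to 0.301.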

How the results depend on the processing

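The count of 5 calls became 8 with library totals alone and 3 without the miR-7 guide strands in the table. Leaving out 1 library gave 5 to 59. The labels do not say whether replicate numbers pair the libraries. Deviations of same-numbered libraries correlated at r = -0.52, 0.27 and 0.20, and those of differently numbered libraries at -0.49 to 0.47. With 3 libraries a group these values cannot decide whether the numbers pair. With the replicate block the count was 5, the same 5 miRNAs. The interaction count of 1 became 4 with no low-count filter and 4 in DESeq2, and 0 with a mean of at least 10 CPM, with the replicate block and without the miR-7 guide strands; leaving out 1 library gave 0 to 19. Arm ratios without overlap numbered 6 to 7.

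Signs turned in these uncalled log2 changes. With library totals alone they were -0.0926 for miR-411-5p, -0.11 for miR-758-3p, -0.0742 for miR-124-3p, -0.0936 for miR-374c-5p and -0.0751 for the difference in miR-409-3p. With at least 10 CPM miR-409-5p was at 0.00203, and with the replicate block miR-374c-5p was at -0.0123. With the erythroid covariate values were 0.00803 for miR-409-5p, -0.0127 for miR-411-5p, -0.0965 for miR-374c-5p and 0.78 for miR-1298-5p. Without Cdr1as671 replicates 1 and 2, chosen after seeing the data, values were 0.0619 for miR-671-3p, 0.0679 for miR-409-5p, -0.0440 for miR-411-5p, -0.0524 for miR-9-5p, -0.51 for miR-451a, -0.80 for miR-144-3p, -0.56 for miR-144-5p, 0.0136 for miR-125b-5p, -0.32 for miR-374c-5p and 1.35 for miR-1298-5p. Leaving out 1 library gave -4.15 to 1.19 for miR-1298-5p, -1.93 to 0.0258 for miR-1a-3p, -0.13 to 0.000382 for miR-26a-5p, -0.12 to 0.00317 for miR-381-3p, -0.13 to 0.14 for miR-409-5p, -0.0234 to 0.0782 for miR-411-5p, -0.0373 to 0.11 for miR-758-3p, -0.12 to 0.23 for miR-374c-5p and -0.00299 to 0.14 for the difference in miR-409-3p. Leaving out WT or CyrKO libraries, or the erythroid miRNAs, was also chosen after seeing the data. The cause was not tested. With 3 libraries a group, small changes of scarce strands such as miR-7a-2-3p, at 38 to 48 reads, may have been missed. The smallest change that could be detected at such counts was not tested.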

Other observations

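Outside the erythroid miRNAs, Cdr1as671 replicate 2 stood apart in another set, seen after the values were examined. The hairpins Mir764, Mir1912, Mir1264, Mir1298 and Mir448 lie inside the gene of the serotonin receptor Htr2c, at chrX:146962513-147197277 in GENCODE M21 (GRCm38), a gene strongly expressed in choroid plexus. Their 8 tested strands summed to 380.3 CPM in Cdr1as671 replicate 2, and to 25.9 and 23.1 CPM in replicates 1 and 3. In the double mutant the sums were 94.5, 22 and 16.3 CPM. WT replicate 1, at 307.5 CPM, and CyrKO replicate 1, at 115 CPM, were also above the other libraries of their groups, which lay at 13 to 18.4 CPM. All 8 strands were highest in Cdr1as671 replicate 2 among the 6 libraries compared. The main member, miR-1298-5p, had a log2 change of -2.03 (SE 2.15, edgeR adjusted p = 0.766), and leaving out 1 library moved it between -4.15 and 1.19.

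Muscle miR-1a-3p was at 583 CPM in the same library and at 65.8 and 112 CPM in the other Cdr1as671 libraries, against 80.0 to 102 CPM in the double mutant, for a log2 change of -1.49 (SE 0.72, edgeR adjusted p = 0.61).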
